A study of Homo sapiens with 6 samples.

Results

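The Notch genes described here are 10 genes of the Notch signalling pathway: the receptors NOTCH1, NOTCH2 and NOTCH3, the ligands JAG1 and JAG2, the receptor modifier LFNG, the DNA-binding factor RBPJ, and the target genes HES1, HEY1 and NRARP. They were taken by symbol from a count table of 25071 Ensembl genes, and all 10 were found and passed the filter on low counts, which left 15816 genes. The table holds 6 RNA-seq libraries of PLC/PRF/5, an established human hepatoma line. Of these, 3 came from cells transfected with a plasmid that overexpresses ARD1 and 3 from cells transfected with the control vector. Every library was harvested 48 hours after transfection, so both groups had gone through transfection and differ in the plasmid given. The ARD1 gene carries the symbol NAA10 and encodes the enzyme of the NatA complex, which acetylates protein N termini. The study used a single cell line, and the label does not give the vector's promoter.

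Notch signalling passes between touching cells. A ligand of the Jagged or Delta type on one cell binds a Notch receptor on its neighbour, the receptor is cut by an ADAM protease and then by gamma-secretase, and the freed intracellular part enters the nucleus, where it joins RBPJ and Mastermind coactivators at target genes such as HES1, HEY1 and NRARP. Fringe enzymes add a sugar to the receptor and so change which ligands it responds to. In the liver the pathway, with JAG1 and NOTCH2 in particular, is known for directing bile duct formation.

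RBPJ binds DNA at sites with the core TGGGAA, and the 250 bases before the transcription start were searched for it in either orientation. RefSeq promoter windows (GRCh38.p14) of 9 of the 10 genes were searched, 14 windows in all because RBPJ and LFNG have several annotated starts. HEY1, also a target, was not part of this search. The window of HES1, a target whose level is set against the receptors below, holds 2 copies on the same strand, beginning 84 and 70 bases before the start. One RBPJ window holds 2 copies on opposite strands, beginning 115 and 72 bases before that start. The window of the second LFNG start holds 1 copy 248 bases before it. No copy lies in the window of NRARP, the other target shown. Each sequence runs 5′ to 3′ on the gene's strand, and capitals mark TGGGAA or its reverse complement TTCCCA.
HES1, chr3:194135898-194136147, plus strand: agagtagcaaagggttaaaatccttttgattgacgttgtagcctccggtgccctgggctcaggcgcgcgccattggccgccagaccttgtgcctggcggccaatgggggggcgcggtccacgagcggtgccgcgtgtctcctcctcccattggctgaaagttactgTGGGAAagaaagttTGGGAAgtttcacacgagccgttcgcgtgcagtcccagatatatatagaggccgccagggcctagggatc
RBPJ, chr4:26319496-26319745, plus strand: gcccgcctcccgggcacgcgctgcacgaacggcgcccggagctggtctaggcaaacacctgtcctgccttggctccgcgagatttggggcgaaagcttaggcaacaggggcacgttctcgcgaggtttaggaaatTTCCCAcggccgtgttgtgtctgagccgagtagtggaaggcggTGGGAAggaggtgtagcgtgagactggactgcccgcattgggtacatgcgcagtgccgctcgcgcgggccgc
LFNG, chr7:2517613-2517862, plus strand: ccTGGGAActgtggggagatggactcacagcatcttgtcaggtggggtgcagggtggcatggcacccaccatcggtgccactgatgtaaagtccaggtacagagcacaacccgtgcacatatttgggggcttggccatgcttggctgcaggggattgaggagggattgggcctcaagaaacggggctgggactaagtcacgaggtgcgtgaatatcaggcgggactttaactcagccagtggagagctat
NRARP, chr9:137302272-137302521, minus strand: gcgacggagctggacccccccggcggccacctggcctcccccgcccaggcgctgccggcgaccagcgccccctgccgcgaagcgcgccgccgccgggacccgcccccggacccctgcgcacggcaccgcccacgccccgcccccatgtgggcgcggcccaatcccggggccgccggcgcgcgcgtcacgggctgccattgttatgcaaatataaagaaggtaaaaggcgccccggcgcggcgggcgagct
Of all 35116 promoter windows of this length, 20.8% hold at least 1 copy and 2.90% hold 2 or more. The longer form GTGGGAA, which contains TGGGAA, is present in 5.43% of all windows. It occurs once in the HES1 window and 2 times in the RBPJ window. Only exact copies were searched for, so sites that differ from this core were missed, in HES1 as elsewhere. These matches describe the letters of the sequence, and binding was not measured.

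The transfected gene NAA10 had 355, 400.2 and 294 CPM in the ARD1 libraries, against 35.6, 32.2 and 36.2 CPM in the control libraries, where CPM is the count scaled to a common library size with TMM factors. The libraries held 21857327 to 25011357 counts. At a Benjamini-Hochberg adjusted p under 0.05 in edgeR's quasi-likelihood test, 10223 genes differed, or 64.6% of those tested (32.4% higher and 32.2% lower in ARD1 libraries). With library totals and no scaling factor the median log2 fold change of all genes was 0.30, where TMM gave 0.031, and 68.6% of changed genes were higher in place of 50.2%. Changes below are relative to the TMM scaling. Control replicate 1 differed from its fellow controls: their chi-square statistics over genes, divided by degrees of freedom, were 17.1 and 19.9, and 2.49 to 4.35 for every other pair within a group. Of 7 tested hepatocyte and hepatoma markers 3 were higher and 4 lower. HNF4A had 39.6 to 42.7 CPM in ARD1 libraries and 33.0 to 36.4 CPM in control libraries, and ALB had 33.8 to 40.8 CPM in ARD1 libraries and 308 to 321 CPM in control libraries. AFP stayed under 4 CPM in every library. TTR was at 0 counts in the ARD1 libraries and at most 0.238 CPM in control libraries, and GPC3 was at most 0.121 CPM in ARD1 libraries and at 0 counts in control libraries, so both were near the floor throughout.

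Transcripts of NOTCH1, NOTCH2 and NOTCH3 were higher in the ARD1 libraries. NOTCH1 (chromosome 9, 136494433 to 136545786, minus strand, GRCh38, GENCODE 29) had 60.1, 58.0 and 57.8 CPM in ARD1 libraries and 54.3, 45.2 and 44.1 CPM in control libraries. NOTCH2 (chromosome 1, 119911553 to 120069626, minus strand) had 132, 134 and 129.5 CPM in ARD1 libraries and 115, 99.8 and 93.8 CPM in control libraries. For both receptors the lowest ARD1 library lay above the highest control library, which was control replicate 1 in each case. NOTCH1 rose 1.22-fold (log2 fold change 0.29, SE 0.0875, adjusted p = 0.00900) and NOTCH2 rose 1.28-fold (0.36, SE 0.0798, adjusted p = 0.00110). In these bulk libraries, a change in the number of cells of a kind and a change in RNA per cell cannot be told apart. Without control replicate 2 or 3, NOTCH1 did not pass (0.22, adjusted p = 0.0800, and 0.20, adjusted p = 0.0859, where over all settings tried adjusted p spanned 6.83e-09 to 0.0859), and without control replicate 1 it came to 0.38. After GC and length correction it came to 0.63 and with library totals to 0.56, where NOTCH2 came to 0.33 and 0.63.

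NOTCH3, a receptor best known from vascular smooth muscle, was low in every library. It had 53, 44 and 53 counts in ARD1 libraries and 7, 15 and 6 counts in control libraries. In CPM that was 2.0 ± 0.307 in ARD1 libraries and 0.434 ± 0.243 in control libraries (SD, n = 3 each). The groups did not overlap, and NOTCH3 rose 4.6-fold with a wide 95% interval of 2.69 to 7.85 (log2 fold change 2.20, SE 0.361, adjusted p = 8.24e-05). Per kilobase of its longest transcript, NOTCH3 stood at 0.231 CPM per kb in ARD1 libraries, far under NOTCH2 at 11.6 and NOTCH1 at 6.30 CPM per kb in the same libraries. NOTCH3 made up 1.04% ± 0.163 of NOTCH1, NOTCH2 and NOTCH3 counts in ARD1 libraries and 0.291% ± 0.172 in control libraries (SD, n = 3 each). The balance of NOTCH1 and NOTCH2 was close in both groups, with NOTCH1 at 30.2% to 31.3% of their joint counts in ARD1 libraries and 31.2% to 32.1% in control libraries, ranges that overlapped.

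NOTCH4, a receptor known from endothelium, did not pass (log2 fold change -0.66, adjusted p = 0.220). It had 0.320 ± 0.150 CPM in ARD1 libraries and 0.505 ± 0.0692 CPM in control libraries (SD, n = 3 each). NOTCH2NLA, NOTCH2NLB and NOTCH2NLC, human paralogues derived from the first exons of NOTCH2, averaged between 2.31 and 3.83 CPM in either group. NOTCH2NLC passed as higher (0.71, adjusted p = 0.0197), but not without ARD1 replicate 1, ARD1 replicate 3 or control replicate 1 (adjusted p = 0.0704, 0.0616 and 0.0585, where over all settings tried adjusted p spanned 0.00472 to 0.0704). NOTCH2NLB (-0.080, adjusted p = 0.765) and NOTCH2NLA (0.036, adjusted p = 0.883) did not. Of the 100-base windows of the longest NOTCH2 transcript, 1.82% are identical to sequence of other genes in GENCODE 29, NOTCH2NLA among them. The identifiers of NOTCH2NLB and NOTCH2NLC are absent from that release, so they were not compared under those names. This share was not computed for the transcripts of the paralogues themselves, and the counts of these near-identical copies are uncertain.

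The Jagged ligands moved in opposite directions. JAG1 (chromosome 20, 10637684 to 10673999, minus strand) had 443, 454 and 411 CPM in ARD1 libraries and 335, 321 and 297 CPM in control libraries. JAG2 (chromosome 14, 105140981 to 105168824, minus strand) had 18.7, 20.4 and 19.7 CPM in ARD1 libraries and 37.5, 35.1 and 33.4 CPM in control libraries. Neither gene overlapped between the groups, with JAG1 higher and JAG2 lower in every ARD1 library. JAG1 rose 1.37-fold (log2 fold change 0.46, SE 0.0715, adjusted p = 5.41e-05), and JAG2 fell to 0.554 of the control level (-0.85, SE 0.0890, adjusted p = 9.45e-07). The change of JAG2 came to -0.44 after GC and length correction, and that of JAG1 to 0.72 with library totals. Of JAG2 exon bases, 7.33% are shared with AL512356.1 on the same strand, and 0.850% of JAG1 exon bases lie opposite AL050403.2.

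Because both Jagged genes are counted in the same library, their share needs no scaling. It is not corrected for GC content, which is 64.0% in JAG2 and 49.6% in JAG1. JAG2 took 4.05%, 4.30% and 4.57% of JAG1 and JAG2 counts in ARD1 libraries, against 10.1%, 9.85% and 10.1% in control libraries. The difference was -5.70 percentage points, with every ARD1 library below every control library (exact permutation test, two-sided, p = 0.10, the smallest that 3 against 3 allows; 0.11 after Benjamini-Hochberg adjustment over the 9 ratios computed). This share was chosen after the values of both genes were seen.

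Among the other ligands, DLK2, a noncanonical ligand, rose to 2.45 ± 0.415 CPM in ARD1 libraries, against 1.18 ± 0.221 CPM in control libraries (SD, n = 3 each; log2 fold change 1.05, adjusted p = 0.00203). DLL3, a Delta-type ligand known to act against Notch inside its own cell, fell to 0.870 ± 0.156 CPM in ARD1 libraries, against 2.30 ± 0.671 CPM in control libraries (-1.39, adjusted p = 0.000725; -0.92 after GC and length correction). DLL1, named after its values were seen, stayed under 1 CPM in both groups and passed as higher (1.42, adjusted p = 0.0141). DLL4, the endothelial ligand, had 0, 2 and 3 counts in ARD1 libraries and 2, 1 and 1 counts in control libraries and was not tested. DLK1 had 0 counts in ARD1 libraries and 0, 3 and 10 counts in control libraries, and was not tested either. The Delta-type transcripts were thus each far below JAG1.

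LFNG, lunatic fringe, which extends the O-fucose on Notch repeats and shifts receptors between Delta and Jagged ligands, had the largest fall of the 10 genes. It lies on chromosome 7 at 2512529 to 2529177 on the plus strand. It had 3.10, 3.0 and 3.63 CPM in ARD1 libraries and 18.9, 14.4 and 15.3 CPM in control libraries. The highest ARD1 library was far below the lowest control library, and LFNG fell to 0.200 of the control level (95% interval 0.161 to 0.248, log2 fold change -2.32, SE 0.146, adjusted p = 3.78e-09). LFNG and NOTCH3 were the 2 genes of the 10 that passed and also differed 2-fold or more, where 21.5% of all tested genes did so (9.71% higher and 11.8% lower).

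The other sugar-adding enzymes changed as well. RFNG, radical fringe, fell to 22.0 ± 1.42 CPM in ARD1 libraries, against 50.2 ± 7.13 CPM in control libraries (SD, n = 3 each; log2 fold change -1.19, adjusted p = 1.56e-07). MFNG, manic fringe, was higher, at 2.56 ± 0.490 CPM in ARD1 libraries and 0.671 ± 0.177 CPM in control libraries (1.92, adjusted p = 3.54e-05). POFUT1, which places the O-fucose that Fringe enzymes extend, and POGLUT1, which places O-glucose, were both lower (-0.51 and -0.53, adjusted p = 6.40e-05 and 0.00139; these 2 were named after their values were seen). After GC and length correction the change of RFNG came to -0.64.

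Within the Fringe family the make-up of the counts therefore differed. LFNG took 10.4% to 13.4% of LFNG, MFNG and RFNG counts in ARD1 libraries and 23.9% to 24.4% in control libraries. MFNG took 7.25% to 10.9% in ARD1 libraries and 0.787% to 1.15% in control libraries. RFNG remained the largest part, at 75.7% to 81.6% in ARD1 libraries and 74.5% to 75.3% in control libraries. None of the 3 shares overlapped between the groups (exact permutation test, two-sided, p = 0.10 for each, the smallest possible, and 0.11 adjusted over the 9 ratios). The 3 shares add up to the whole, so they are not separate results, and they were chosen after values were seen. These are shares of counts and are not corrected for transcript length.

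**Figure D1:**
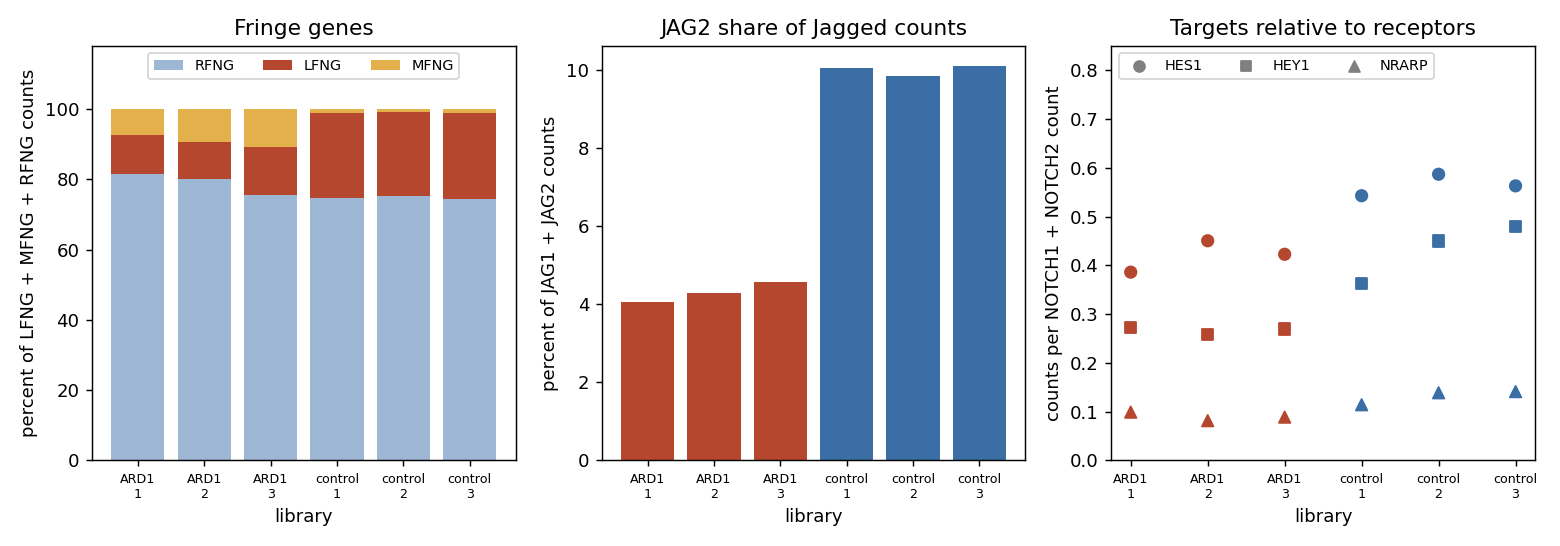
Ratios of raw counts within each of the 6 libraries, with ARD1 plasmid libraries left of control vector libraries. The left panel stacks the percent of Fringe counts in RFNG, LFNG and MFNG, the middle panel shows the percent of Jagged counts in JAG2, and the right panel shows HES1, HEY1 and NRARP counts per NOTCH1 plus NOTCH2 count. JAG2 took 4.05% to 4.57% in ARD1 libraries and 9.85% to 10.1% in control libraries.

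RBPJ, the DNA-binding factor through which Notch acts on its targets, was modestly lower. It lies on chromosome 4 at 26163455 to 26435131 on the plus strand, and had 66.1, 65.3 and 69.3 CPM in ARD1 libraries and 74.1, 82.3 and 82.2 CPM in control libraries. The groups did not overlap, and RBPJ fell to 0.842 of the control level (log2 fold change -0.25, SE 0.0743, adjusted p = 0.00871). This direction depended on the scaling. With library totals RBPJ came to 0.014 and did not pass (adjusted p = 0.879; 3.83e-08 to 0.879 across all settings tried), and after GC and length correction it came to -0.57. No 100-base window of its longest transcript was identical to another annotated gene.

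With TMM scaling none of the 3 target genes passed as higher, and HEY1 passed as lower. HES1, a repressor of the basic helix-loop-helix class and the best known Notch target, had 74.2, 86.5 and 79.2 CPM in ARD1 libraries and 91.8, 85.1 and 77.6 CPM in control libraries. Its groups overlapped, and it did not pass (chromosome 3, 194136145 to 194138732, plus strand; log2 fold change -0.085, 95% interval -0.26 to 0.094, adjusted p = 0.388). That interval does not reach the 0.29 of NOTCH1 or the 0.36 of NOTCH2, but their own 95% intervals begin at 0.104 and 0.189. The difference between HES1 and either receptor was not tested. With library totals HES1 came to 0.18 while both receptors rose further. Its adjusted p was then 0.0510, and 0.0510 to 0.807 across all settings tried.

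HEY1 (chromosome 8, 79764010 to 79767863, minus strand), a related repressor, had 52.3, 49.5 and 50.4 CPM in ARD1 libraries and 61.3, 65.2 and 66.2 CPM in control libraries. The groups did not overlap, and HEY1 fell to 0.790 of the control level (log2 fold change -0.34, SE 0.0735, adjusted p = 0.000888). With library totals it came to -0.077 and did not pass (adjusted p = 0.373; 4.79e-07 to 0.373 across all settings tried).

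NRARP (chromosome 9, 137300482 to 137302251, minus strand), a small ankyrin repeat protein that dampens Notch signalling as a feedback, had 19.0, 15.6 and 16.6 CPM in ARD1 libraries and 19.3, 20.1 and 19.4 CPM in control libraries. ARD1 replicate 1 lay just under the lowest control, so the groups did not overlap, but the difference did not pass (log2 fold change -0.20, SE 0.101, 95% interval -0.42 to 0.015, adjusted p = 0.0949). NRARP passed in opposite directions under other settings, at 0.27 after GC and length correction (adjusted p = 0.0179) and -0.22 without control replicate 1 (adjusted p = 0.0369), where over all settings tried adjusted p spanned 0.0179 to 0.590. No direction can be given for it.

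Set against the receptors in the same library, the ratios of all 3 targets were lower in the ARD1 libraries. The 3 ratios share 1 denominator, the NOTCH1 plus NOTCH2 count, so they are not separate results. Both receptors were themselves higher in ARD1 libraries, while HES1 alone did not pass and NRARP alone had no clear direction. HES1 had 0.386, 0.450 and 0.423 counts per NOTCH1 plus NOTCH2 count in ARD1 libraries and 0.543, 0.587 and 0.563 in control libraries. HEY1 had 0.272, 0.258 and 0.269 in ARD1 libraries and 0.363, 0.450 and 0.480 in control libraries. NRARP had 0.0988, 0.0814 and 0.0886 in ARD1 libraries and 0.114, 0.139 and 0.141 in control libraries. No target overlapped between the groups on this measure, which no library scaling can move (exact permutation test, two-sided, p = 0.10 for each, the smallest possible, and 0.11 adjusted over the 9 ratios). These ratios were chosen after the receptor and target values were seen, so the p-values only describe the separation. It is not corrected for GC content, which is 67.3% in NRARP, 49.9% in HES1 and 47.3% in HEY1, and 62.9% in NOTCH1 and 49.4% in NOTCH2.

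**Figure D2:**
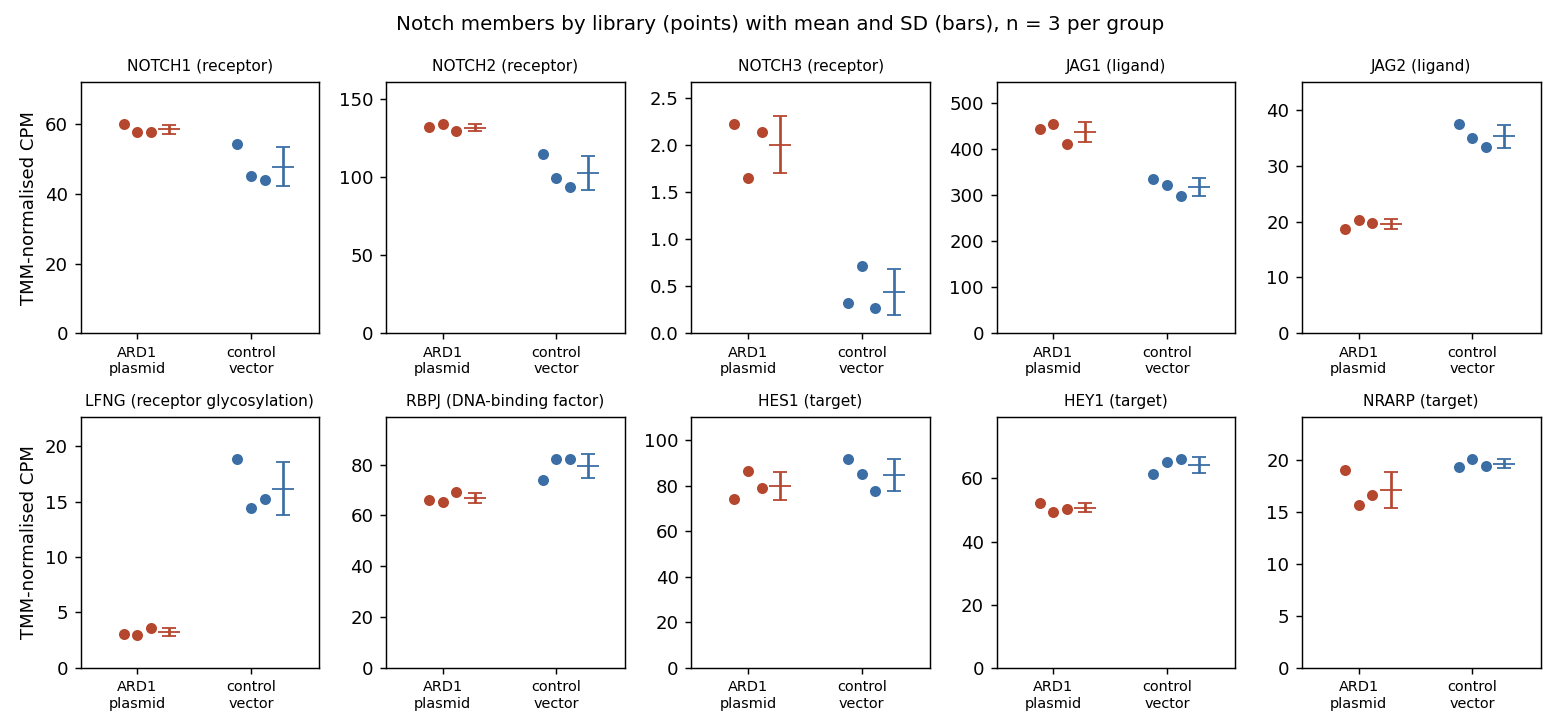
TMM-normalised CPM of the 10 Notch genes, with 1 point per library, the mean and SD beside them (n = 3 per group), ARD1 plasmid left of control vector, and axes from 0. NOTCH1, NOTCH2, NOTCH3 and JAG1 lie higher in every ARD1 library, JAG2, LFNG, RBPJ and HEY1 lie lower, HES1 overlaps between the groups, and NRARP is separated only narrowly.

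Of the 10 genes, 4 passed as higher, 4 as lower and 2 did not pass, with a median log2 fold change of -0.14, where 64.6% of all tested genes passed and their median was 0.031. In 9 of the 10 the libraries of the groups did not overlap in CPM, against 69.6% of all tested genes. With so much of the transcriptome changed, neither count sets these genes apart. Without control replicate 1, 9 passed, 4 higher and 5 lower, and without control replicate 2 or 3, 7 passed. With library totals 4 passed as higher and 2 as lower, beside a background of 70.1%, and after GC and length correction 5 and 4 passed, beside 67.7%.

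GC content moved with the fold changes of all genes. The 2181 tested genes with a longest transcript above 60% G and C had a median log2 fold change of -0.40, and the 2411 at or under 40% had 0.28. Of the Notch genes, NOTCH1 (62.9%), NOTCH3 (63.1%), JAG2 (64.0%), LFNG (62.7%) and NRARP (67.3%) fall in the first class and RBPJ (38.0%) in the second. With the trends removed JAG2 and LFNG were still lower (-0.44 and -1.90) and NOTCH1 and NOTCH3 higher (0.63 and 2.55), each past the threshold. RBPJ went from -0.25 to -0.57, and NRARP turned from -0.20 to 0.27 and passed as higher. NOTCH1 and NRARP both lie near the end of the long arm of chromosome 9. Of 62 tested genes from NOTCH1 to the end of that chromosome, 6 passed as higher, NOTCH1 among them, and 41 as lower, and their median was -0.81. Over all tested genes 32.4% passed as higher and 32.2% as lower, and the median was 0.031. The values for this stretch are without GC and length correction.

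**Figure D3:**
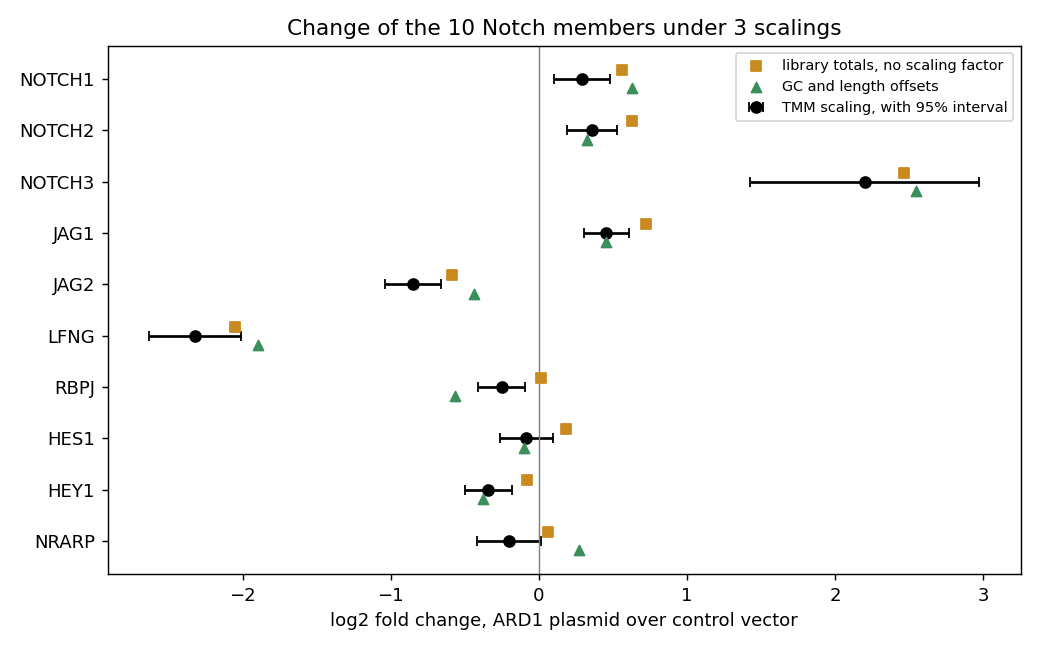
Log2 fold change of each Notch gene, ARD1 plasmid over control vector, from edgeR with TMM scaling (circles with 95% intervals), with library totals (squares) and with GC and length offsets (triangles). NOTCH1, NOTCH2, NOTCH3 and JAG1 lie right of 0 and JAG2, LFNG and HEY1 left of 0 under all 3, while RBPJ, HES1 and NRARP cross 0.

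Levels of different genes were compared per kilobase of the longest annotated transcript. In ARD1 libraries JAG1 was highest at 73.4 ± 3.70 CPM per kb, then HES1 at 50.7 ± 3.93 and HEY1 at 22.1 ± 0.627 (SD, n = 3). NOTCH2 (11.6), RBPJ (11.2), NRARP (9.65), NOTCH1 (6.30), JAG2 (3.35), LFNG (1.36) and NOTCH3 (0.231 CPM per kb) followed, and of these neighbours only NOTCH2 and RBPJ overlapped in their ranges over libraries. In control libraries HES1 (53.8) and JAG1 (53.5 CPM per kb) overlapped at the top. HEY1 (27.98), RBPJ (13.3), NRARP (11.1), NOTCH2 (9.03), LFNG (6.81), JAG2 (6.05), NOTCH1 (5.15) and NOTCH3 (0.050 CPM per kb) followed, where LFNG overlapped JAG2 and JAG2 overlapped NOTCH1. LFNG stood above JAG2 and NOTCH1 in the control order and below both in the ARD1 order.

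The rest of the pathway was counted in a list of 59 further genes grouped by role, of which 57 were in the table and 51 were tested. Of these, 18 passed as higher and 20 as lower, and the median of their log2 fold changes was 0.030, against 32.4% higher and 32.2% lower and a median of 0.031 over all tested genes. With library totals 24 passed as higher and 14 as lower, where 70.1% of all tested genes passed and 68.6% of those were higher. Counts by role below are small and stand against these shares. Genes that bring ligand into the cell had 1 higher and 3 lower of 4. The ubiquitin ligase MIB2 (23.5 ± 1.54 CPM in ARD1 libraries and 36.8 ± 2.97 CPM in control libraries, -0.65) and NEURL1B (-0.72) fell, as did NEURL1 (-0.92), and MIB1 rose (0.58). After GC and length correction NEURL1B came to -0.47 and MIB1 to 0.26, both past the threshold. MIB2 did not pass after GC and length correction (-0.15, adjusted p = 0.0624; 5.10e-09 to 0.0818 across all settings tried). NEURL1 did not pass either in that fit (-0.46, adjusted p = 0.110). NEURL1 and MIB1 were named after their values were seen.

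Of 9 genes of receptor cleavage 3 were higher and 3 lower, a share close to that of all tested genes. APH1A, a gamma-secretase subunit, fell to 260.4 ± 4.15 CPM in ARD1 libraries, against 381 ± 44.6 CPM in control libraries (SD, n = 3 each; log2 fold change -0.55, adjusted p = 3.01e-05). Its change came to -0.34 after GC and length correction and to -0.28 with library totals, both past the threshold. NCSTN, the subunit that holds the substrate, fell too (-0.34, adjusted p = 0.00158), but not with library totals (-0.074, adjusted p = 0.343; 1.22e-05 to 0.343 across all settings tried). The proteases ADAM10 (0.26) and ADAM17 (0.35) passed as higher, both named after their values were seen, and after GC and length correction they came to -0.059 and 0.046 and did not pass.

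Among coactivators that act with RBPJ 3 of 6 were higher and 2 lower, where 64.6% of all tested genes passed in about equal parts. The acetyltransferase KAT2B rose to 41.1 ± 1.96 CPM in ARD1 libraries, against 24.6 ± 2.91 CPM in control libraries (SD, n = 3 each; log2 fold change 0.74, adjusted p = 1.00e-05), and the Mastermind gene MAML3 fell (-0.66, adjusted p = 7.04e-06; -0.39 with library totals). Among corepressors 4 of 10 were higher and 4 lower. The highest and the lowest fold change among these 10 were those of Groucho family corepressors, which HES proteins recruit. TLE4 rose to 19.8 ± 0.681 CPM in ARD1 libraries, against 5.61 ± 0.845 CPM in control libraries (1.82, adjusted p = 8.95e-09). TLE2, with 5, 14 and 3 counts in ARD1 libraries and 89, 70 and 57 counts in control libraries, fell to 0.285 ± 0.212 CPM in ARD1 libraries, against 3.31 ± 0.745 CPM in control libraries (-3.49, adjusted p = 1.40e-06). Without ARD1 replicate 2 it came to -4.29, and over all single libraries left out it ranged from -4.29 to -3.12.

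Of the intracellular regulators 1 of 7 tested was higher and 3 lower. These included the ubiquitin ligase DTX2 (26.4 ± 1.64 CPM in ARD1 libraries and 42.5 ± 3.24 CPM in control libraries, log2 fold change -0.69) and RITA1, which carries RBPJ out of the nucleus (-0.51). After GC and length correction DTX2 came to -0.29 and RITA1 to -0.20, and with library totals to -0.42 and -0.24, each still past the threshold. In the wider HES and HEY family 2 of 4 tested were higher and 1 lower. HES6, known from mouse and frog as an antagonist of HES1, rose to 13.8 ± 0.735 CPM in ARD1 libraries, against 6.21 ± 0.224 CPM in control libraries (1.15, adjusted p = 6.33e-07). HES4, named after its values were seen, rose as well (0.76, adjusted p = 1.89e-05), and after GC and length correction HES6 and HES4 came to 1.69 and 1.35. HEY2 had 7, 12 and 14 counts in ARD1 libraries and 1, 1 and 2 counts in control libraries, and HEYL had 3, 2 and 0 in ARD1 libraries and 0 in each control library. Both stayed under the filter, as did HES5 and DTX1.

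**Figure D4:**
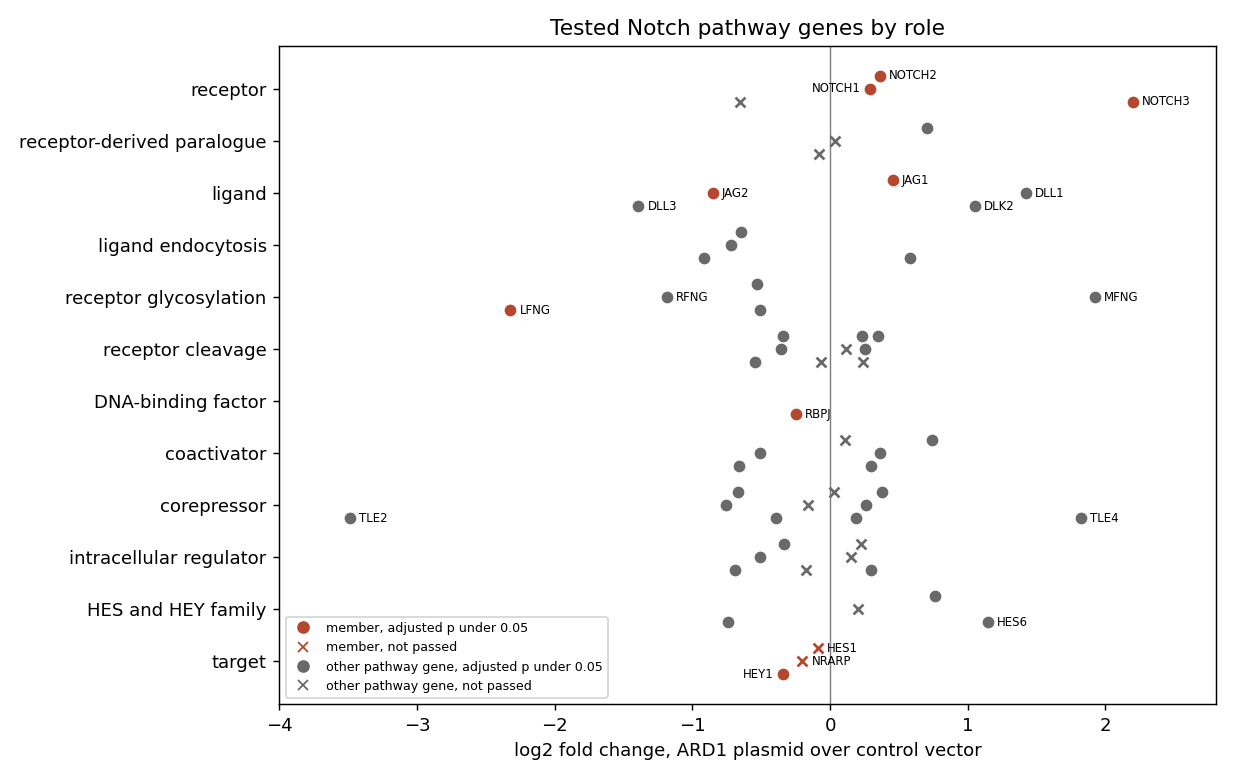
Log2 fold change, ARD1 plasmid over control vector, of the 61 tested Notch pathway genes by role, with the 10 Notch genes in red, other genes in grey, circles for an adjusted p under 0.05 and crosses otherwise. TLE2 (-3.49) and LFNG (-2.32) lie farthest left and NOTCH3 (2.20), MFNG (1.92) and TLE4 (1.82) farthest right, and most roles hold genes on both sides of 0.

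The most similar profile over the 6 libraries was sought for each Notch gene among the other 60 tested pathway genes, by the root mean square difference of mean-centred log2 values. NOTCH1 and NOTCH2 were each other's nearest (0.0446), and so were RBPJ and HEY1 (0.0603). JAG1 was nearest to MAML1 (0.050), JAG2 to CTBP1 (0.0751), HES1 to NUMBL (0.0706) and NRARP to SPEN (0.0727). LFNG was nearest to TLE2 (0.311) and NOTCH3 to HES6 (0.261), matches that were several times looser. With 6 libraries in 2 groups this likeness mostly orders genes by their difference between the groups.

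Markers of other liver cell types were measured beside these genes because several Notch genes are known from bile duct and vessel. Biliary markers summed to 415 to 429 CPM in ARD1 libraries and 1083 to 1158 CPM in control libraries, and 4 of 4 tested were lower, with CFTR at 0 counts in the ARD1 libraries and in 2 of 3 control libraries. Endothelial markers summed to 90.2 to 103 CPM in ARD1 libraries and 70.0 to 82.7 CPM in control libraries, with 3 of 4 tested higher and 1 lower. The lower one, CDH5, had at most 0.161 CPM in ARD1 libraries and 30.5 to 35.3 CPM in control libraries. Of the higher ones, PECAM1 had 55.1 to 61.3 CPM in ARD1 libraries and 30.2 to 37.5 CPM in control libraries. KDR had 31.6 to 40.3 CPM in ARD1 libraries and 7.95 to 9.42 CPM in control libraries. The sum thus hides opposite changes. Fibroblast and stellate markers summed to 18.2 to 20.7 CPM in ARD1 libraries and 78.1 to 98.8 CPM in control libraries, with 1 of 5 higher and 2 lower, and immune markers to 8.79 to 9.60 CPM in ARD1 libraries and 16.8 to 19.2 CPM in control libraries, with 2 of 3 lower. Hepatocyte and hepatoma markers summed to 215 to 237 CPM in ARD1 libraries and 737 to 770 CPM in control libraries, with 3 of 7 higher and 4 lower. The part of these markers in the Notch values was not tested.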

How the data were processed

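RNA was extracted with Trizol, depleted of ribosomal RNA and made into directional libraries, per the labels' protocols. The submitters' processing notes name cutadapt 4.6, STAR 2.7.11b and GRCh38. The counter, strand handling and gene models were not given in the sources used here. Whole-number counts per Ensembl gene were deposited without normalization by the authors, and every gene has at least 2 counts in total. Symbols matched 25052 of 25071 identifiers.

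Groups and replicate numbers came from sample titles. Whether replicates derive from independent cultures is not stated, so p-values measure the spread between libraries, which may be technical. Genes were filtered with filterByExpr, scaled by TMM and tested with edgeR 4.0.16 under R 4.3.3 on the 6 libraries. P-values were adjusted by Benjamini-Hochberg across every tested gene, and SEs came from the F statistic. GC and length offsets were loess fits per library on GENCODE 29 (span 0.5), with values for 96.3% of tested genes. A gene with 3 counts has 0.120 to 0.137 CPM.

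The Notch genes, the pathway list and the markers were chosen with earlier results of these data known. Other pathway genes were named by rule: past the threshold, at least 2-fold different and at least 1 CPM in the higher group, at most 12, and up to 2 by smallest p in a role with none. The nearest profile to each Notch gene is also named. Ratios were chosen after values were seen. Alternatives were RLE, upper-quartile and no scaling, DESeq2 1.42.0, limma-voom (limma 3.58.1), totals that leave out NAA10, other filters, the replicate block, GC and length offsets, and each library left out. The steps were run on simulated counts with few changed genes and no GC trend. That run therefore does not test scaling when most genes change, or the removal of a GC trend. One gene of the pathway list is counted but not reported here.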

Additional observations from a re-analysis of the deposited data

How the results depend on the processing

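Over 17 alternatives, 161 of 170 values of the Notch genes kept their direction and side of the threshold. Requiring also a 2-fold difference left 3406 of all genes and 2 of the Notch genes. With library totals RBPJ came to 0.014, HES1 to 0.18, NRARP to 0.064 and NOTCH2NLB to 0.19, each with a sign opposite to that with TMM, as the scaling moves all genes by a common amount. With GC and length offsets NRARP came to 0.27, with and without the block, opposite to its main sign, and the cause was not tested. NOTCH2NLB changed sign without ARD1 replicate 1 (0.023) and without control replicate 2 (0.093), and over all single libraries left out it ranged from -0.29 to 0.093. Leaving out single libraries gave 9271 to 10984 changed genes, 7 to 9 Notch genes and 33 to 40 other pathway genes.

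The replicate number as a block gave 10293 changed genes, 8 Notch genes and 38 other pathway genes. Same-numbered libraries correlated at -0.04 to 0.03 in their deviations from the group means, so the numbers were not taken as pairs. DESeq2 gave 9785 changed genes and 8 Notch genes. Depth limits NOTCH3, and HEY2, HEYL, HES5, DLL4, DLK1 and DTX1 were too low to test.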
